A study of Homo sapiens with 6 samples.

Results

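The 32 genes described here belong to the unfolded protein response of the endoplasmic reticulum. They were taken by symbol from a deposited table of 60612 gene rows, and each symbol matched 1 row. Messenger RNA was measured in 6 libraries of poly(A)-selected RNA, made from cells whose labels name Hep3B, an established liver cancer line. In 3 of them the cells had received a small interfering RNA (siRNA) against EIF4G2 at 50 nM (siEIF4G2), and in the other 3 a control siRNA at the same 50 nM (siNC). EIF4G2, also called DAP5, is a translation initiation factor. No untreated cells were included, so every library carries an siRNA. The comparison asks which of these messenger RNAs differ when EIF4G2 is silenced. Whether the replicates came from separate cultures is not stated in the labels. The p-values therefore measure only how these libraries vary, and that variation may be technical. The extraction protocol speaks of an adipose type, which the other labels do not.

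The endoplasmic reticulum folds proteins that are secreted or placed in membranes. When unfolded proteins accumulate, the membrane sensors IRE1 (gene ERN1), PERK (EIF2AK3) and ATF6 are activated. IRE1 splices the XBP1 messenger RNA so that it encodes an active transcription factor, ATF6 is cut in the Golgi to release another, and PERK phosphorylates the initiation factor eIF2 alpha, which lowers general translation while favouring ATF4. The target genes encode chaperones, disulfide enzymes, the machinery that moves misfolded proteins back to the cytosol for degradation (ER-associated degradation), and parts of the translocation and export apparatus. Total gene levels do not show XBP1 splicing, ATF6 cleavage or PERK activity.

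Because response genes are known for shared promoter elements, the promoters of 28 members found in the RefSeq promoter table (GRCh38.p14; 250 bases before and 50 after each annotated start) were searched on both strands. The endoplasmic reticulum stress element, known to be read by NF-Y and ATF6, is CCAAT followed after 9 bases of any kind by CCACG. Its second form is ATTGG, any base and then CCACG. The first was found in 4 of the 28, HSPA5, HSP90B1, XBP1 and CRELD2, and in 0.0806% of 27305 promoters of the same length. The second was found in HERPUD1, HYOU1 and SDF2L1, and in 0.0549% of all. Among the 9375 promoters of tested genes the shares were 0.149% for the first form and 0.117% for the second. The letters TGACGTGG, known from XBP1 binding, were found in HYOU1, where they overlap a match to the second form, and in 0.795% of all, while TGACGTGA was found in 0 of the 28. The matching stretches are shown because they are the feature these 7 genes share; capitals mark the fixed letters of a match.
HSPA5, chr9:125241381-125241419, minus strand: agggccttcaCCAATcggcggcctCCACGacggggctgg
XBP1, chr22:28800593-28800631, minus strand: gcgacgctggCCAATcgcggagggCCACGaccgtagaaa
CRELD2, chr22:49918544-49918582, plus strand: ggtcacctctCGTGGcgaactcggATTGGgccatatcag
HERPUD1, chr16:56932015-56932045, plus strand: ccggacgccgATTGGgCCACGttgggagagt
SDF2L1, chr22:21642104-21642134, plus strand: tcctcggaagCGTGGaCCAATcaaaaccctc
HSP90B1, chr12:103930206-103930349, plus strand: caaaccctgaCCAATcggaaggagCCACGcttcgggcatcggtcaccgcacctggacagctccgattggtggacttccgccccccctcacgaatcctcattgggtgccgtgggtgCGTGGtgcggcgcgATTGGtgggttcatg
HYOU1, chr11:119057264-119057403, minus strand: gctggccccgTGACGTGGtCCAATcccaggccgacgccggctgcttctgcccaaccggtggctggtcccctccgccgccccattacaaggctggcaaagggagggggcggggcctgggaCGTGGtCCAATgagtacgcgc

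All these stretches lie before the start annotated in RefSeq, and each is written on the strand of its gene. The deposited gene intervals differ: those of HSP90B1 (from 103930107) and CRELD2 (from 49918167) contain the stretch. That of XBP1, on the minus strand up to 28800597, contains a few of its bases. The matches in CRELD2 and SDF2L1, both matches of the second form in HYOU1 and the later match in HSP90B1 are in the reverse orientation. A match describes letters only.

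Levels are given as deposited FPKM (fragments scaled to transcript length and library size), which allow genes to be compared with one another. Fold changes, standard errors (SE) and adjusted p come from edgeR's quasi-likelihood test on the deposited estimated counts, fitted across 13748 genes. A gene is called when its Benjamini-Hochberg adjusted p is under 0.05. Total counts were 63351653 to 72863628 per library. EIF4G2 itself read 17.9, 17.6 and 20.05 FPKM in siEIF4G2 replicates 1, 2 and 3 against 107, 89.4 and 97.8 FPKM in siNC, 5.41-fold lower (log2 fold change -2.43, SE 0.09; edgeR adjusted p = 0.000207). The liver label was not matched by the transcripts: all 13 hepatocyte markers looked up were under 1 FPKM in every library, and 8 of them, ALB, AFP, APOA1, APOB, TTR, FGB, APOH and GPC3, had a count of 0 throughout. The 5 epithelial markers summed to 339 to 367 FPKM in siEIF4G2 and 382 to 389 FPKM in siNC. The abundant keratins KRT8 and KRT18 held nearly all of that sum. The other 3, KRT19, EPCAM and CDH1, were under 1 FPKM in every library. The 7 fibroblast markers summed to 99.5 to 101 FPKM in siEIF4G2 and 77.05 to 85.3 FPKM in siNC, carried mostly by COL3A1 and LUM. They did not move as one: COL3A1, LUM and DCN were called higher in siEIF4G2, whereas COL1A1 was 1.35-fold and PDGFRB 2.29-fold lower (edgeR adjusted p = 0.0083 and 0.00302). Endothelial (5), leukocyte (6) and adipocyte (5) markers summed to 0.439 to 0.55, 7.73 to 9.63 and 0 FPKM in siEIF4G2, and to 1.35 to 1.42, 12.1 to 14.1 and 0.0416 to 0.0821 FPKM in siNC. Among the leukocyte markers, CD68 held nearly all of that sum while PTPRC and CD3E had a count of 0. The part of these marker differences in the results below was not tested. In bulk RNA, fewer cells of a kind and less RNA per cell cannot be told apart.

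The response genes differed in both directions. Of 31 tested members, 5 were higher in siEIF4G2 (ATF6, SDF2L1, PDIA4, PDIA6 and ERO1A), 11 were lower (ERN1, EIF2AK3, HSPA5, DNAJB9, DNAJC3, MANF, EDEM1, EDEM2, DERL2, SEC61B and SEC24D) and 15 were not called. The largest called changes were a 1.67-fold fall of EDEM2 and of ERN1, and 0 of the 31 were called with a change of 2-fold or more, beside 3.55% of all tested genes. The share of members called higher, 16.1%, lay beside 15.9% of all tested genes, and the share called lower, 35.5%, beside 17.6%. Counting both directions, 33.4% of all tested genes were called. The groups did not overlap in CPM (counts scaled to the effective library size) for 18 of 31 members (58.1%) and for 50.6% of tested genes. The median log2 fold change was -0.10 over the tested members and 0.01 over all tested genes. In a fit with no filter, which held all 32 members, the median was -0.08. The median size of change on the log2 scale, sign ignored, was 0.22 over all tested members and 0.26 over all tested genes. Over called genes alone it was 0.28 for members and 0.47 for all.

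Of the 7 genes whose promoters hold the stress element letters shown above, SDF2L1 rose, HSPA5 fell, and XBP1, CRELD2, HERPUD1, HSP90B1 and HYOU1 were not called. The share called, 28.6%, is near the 33.4% of all tested genes.

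**Figure D1:**
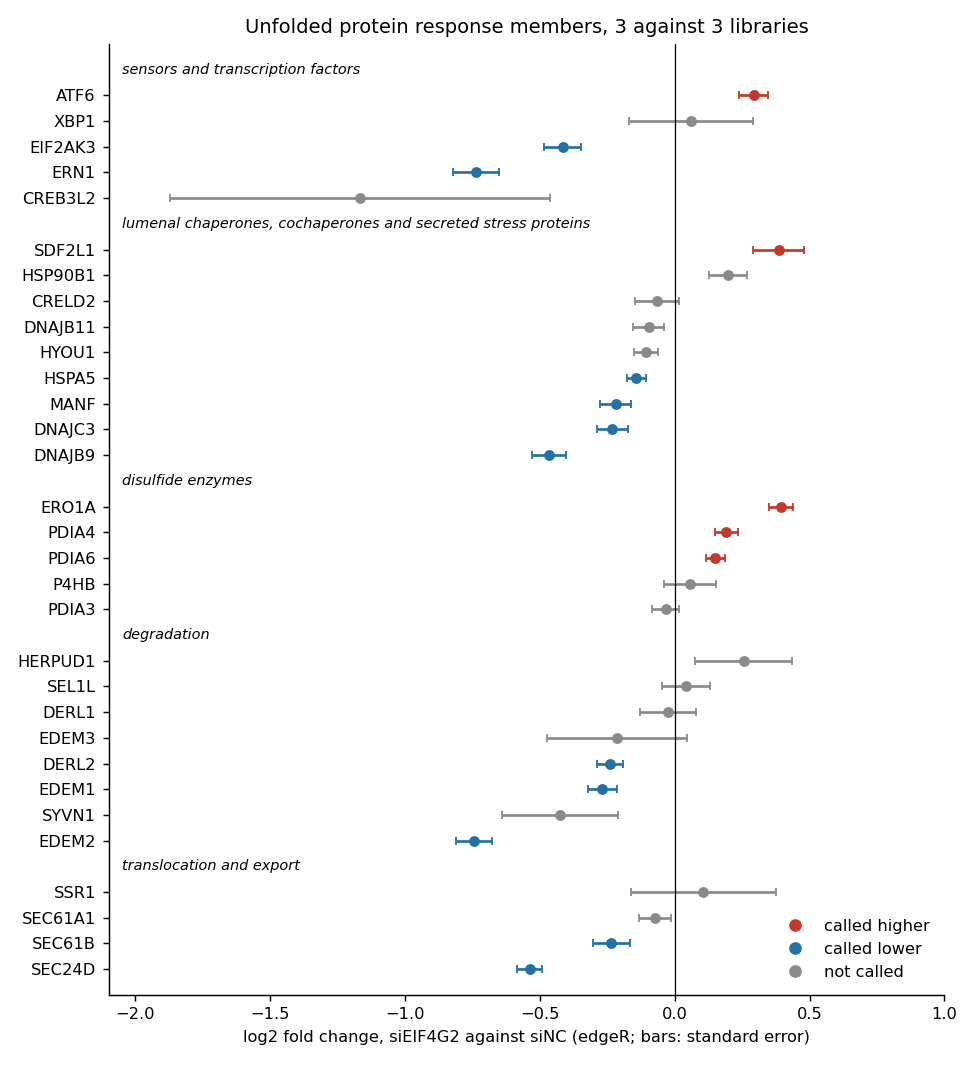
Log2 fold change (x axis; siEIF4G2 against siNC, edgeR) of the 31 tested members, ordered within each role, with bars for the standard error; red points were called higher, blue lower and grey not called. The 3 called disulfide enzymes are to the right of 0 and the 3 called degradation genes to the left, while CREB3L2 has the widest bar.

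Of the 16 called members, 9 passed under every alternative setting in which they were tested: ERN1, EIF2AK3, ATF6, DNAJB9, ERO1A, EDEM1, EDEM2, DERL2 and SEC24D. ERN1 was not tested under the stricter filter at 2 FPKM, which left it 14 of 15 settings. The other 7, HSPA5, DNAJC3, SDF2L1, MANF, PDIA4, PDIA6 and SEC61B, kept their direction but missed the threshold under at least 1 setting. Without siNC replicate 2, for example, 2 members were called higher and 7 lower. The share called over all tested genes fell there as well, from 33.4% to 24.7%.

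Across all 6 libraries the members spanned more than 3 orders of magnitude in level. Means over the 6 libraries were at least 100 FPKM for 5 members: HSP90B1 (209 FPKM), HSPA5 (205 FPKM), PDIA6 (151 FPKM), PDIA3 (133 FPKM) and P4HB (124 FPKM), all lumenal folding proteins. HSP90B1 and HSPA5 ranked 128 and 130 among the 13748 tested genes, and their libraries overlapped in range. A further 13 members lay between 10 and 100 FPKM, from SEC61A1 (86.5 FPKM) to HERPUD1 (10.01 FPKM), and 12 between 1 and 10 FPKM. Of the sensors, ATF6 at 12.8 FPKM ranked 17 among the 32 members, EIF2AK3 at 7.07 FPKM ranked 22 and ERN1 at 0.647 FPKM ranked 31. DERL3, a Derlin known from secretory cells, read 0.173 FPKM and was the member below the filter, with 0.187, 0.38 and 0.0692 FPKM in siEIF4G2 against 0.013, 0.32 and 0.0694 FPKM in siNC. Summed over all 32 members the FPKM was 1303 ± 21.6 in siEIF4G2 and 1282 ± 13.3 in siNC (SD, n = 3), with overlapping groups.

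**Figure D2:**
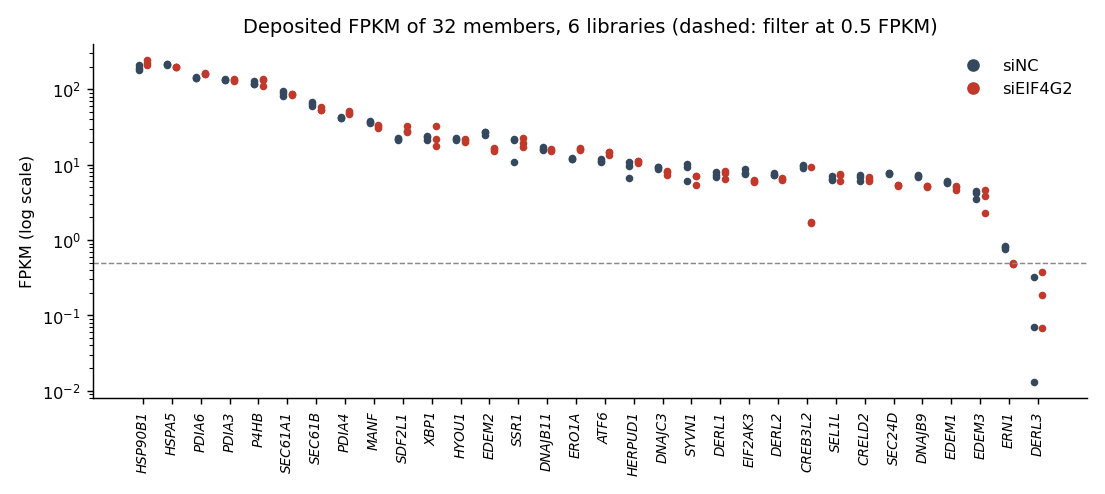
Deposited FPKM (y axis, log scale) of each of the 32 members in the 6 libraries, ordered by mean level, siNC in dark blue and siEIF4G2 in red; the dashed line is the filter at 0.5 FPKM. The order runs from HSP90B1 at 209 FPKM to DERL3 at 0.173 FPKM, and EDEM2, SEC24D and ERN1 show separated groups.

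The messenger RNAs of the 3 stress sensors did not move together. ERN1, which encodes the kinase and endoribonuclease IRE1 alpha (chr17:64039142-64130819, minus strand, GRCh38), read 0.488, 0.48 and 0.504 FPKM in siEIF4G2 replicates 1, 2 and 3 against 0.823, 0.819 and 0.771 FPKM in siNC. Every siEIF4G2 library lay below every siNC library, with means of 0.491 ± 0.0119 and 0.804 ± 0.0289 FPKM (SD, n = 3). ERN1 fell 1.67-fold (log2 fold change -0.74, SE 0.08; edgeR adjusted p = 0.00192). It passed the filter through the siNC libraries, since 1 of 3 siEIF4G2 libraries reached 0.5 FPKM. Without any filter its log2 fold change was -0.73 (edgeR adjusted p = 0.00428).

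EIF2AK3, the gene of the eIF2 alpha kinase PERK (chr2:88556741-88627464, minus strand), read 6.32, 5.94 and 6.12 FPKM in siEIF4G2 and 7.54, 7.77 and 8.75 FPKM in siNC. The groups did not overlap, and EIF2AK3 fell 1.33-fold (log2 fold change -0.41, SE 0.07; edgeR adjusted p = 0.00635). ATF6, the membrane-bound transcription factor (chr1:161766320-161964070, plus strand), went the other way, with 14.5, 13.3 and 14.8 FPKM in siEIF4G2 and 11.3, 11 and 11.9 FPKM in siNC. All siEIF4G2 values of ATF6 were above all siNC values, a 1.22-fold rise (log2 fold change 0.29, SE 0.05; edgeR adjusted p = 0.00866). XBP1, the transcription factor downstream of IRE1, overlapped between groups at 17.9, 33.05 and 21.9 FPKM in siEIF4G2 and 21.3, 24.1 and 23.5 FPKM in siNC (log2 fold change 0.06, SE 0.23; edgeR adjusted p = 0.868). In XBP1 the replicate 2 library of siEIF4G2 was the highest of the 6 and replicate 1 the lowest.

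CREB3L2 encodes a membrane-bound transcription factor of the ATF6-like kind (chr7:137874979-138002086, minus strand) and had the widest spread of the tested members. It read 1.68, 9.4 and 1.75 FPKM in siEIF4G2 replicates 1, 2 and 3, and 9.97, 9.65 and 8.94 FPKM in siNC. Replicates 1 and 3 of siEIF4G2 were far below siNC and replicate 2 lay within the siNC range, a 5.6-fold spread inside 1 group. With all libraries the log2 fold change was -1.17 (SE 0.71; edgeR adjusted p = 0.251), and without siEIF4G2 replicate 2 it was -2.51 (edgeR adjusted p = 0.00108). EIF4G2 itself was as low in siEIF4G2 replicate 2 as in replicates 1 and 3. Of 9807 genes with a mean of at least 2 FPKM, siEIF4G2 replicate 2 was 2-fold or more away from both other libraries of its group in 144, where the other 5 libraries gave 103 to 119.

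**Figure D3:**
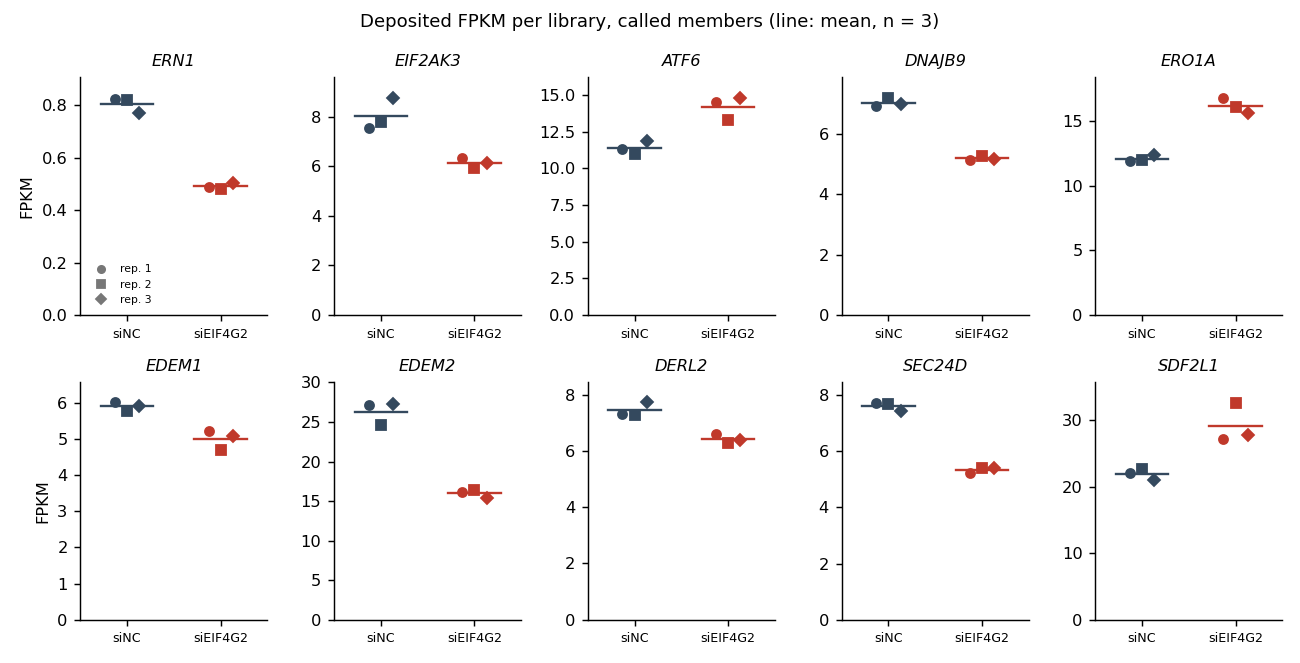
Deposited FPKM (y axes, from 0) of 10 called members in each library, with circles, squares and diamonds for replicates 1, 2 and 3 and a line at each group's mean. ERN1, EIF2AK3, DNAJB9, EDEM1, EDEM2, DERL2 and SEC24D are lower and ATF6, ERO1A and SDF2L1 higher in siEIF4G2, with no overlap between groups in any of the 10.

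Among the 9 chaperones, cochaperones and secreted stress proteins of the lumen, 4 fell, 1 rose and 4 were not called. The shares, 44.4% lower and 11.1% higher, stand beside 17.6% and 15.9% of all tested genes. The falls numbered 1 or 2 on leaving out any library other than siEIF4G2 replicate 2. HSPA5 encodes BiP, the main Hsp70 of the lumen, which also holds the sensors inactive (chr9:125234853-125241343, minus strand). It read 195, 198 and 196 FPKM in siEIF4G2 and 210.1, 215 and 215 FPKM in siNC, a narrow gap with tight groups. The fall was 1.10-fold (log2 fold change -0.14, SE 0.03; edgeR adjusted p = 0.024), and it missed the threshold on leaving out siEIF4G2 replicate 1, siEIF4G2 replicate 3 or any siNC library (adjusted p = 0.0662 to 0.0844).

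DNAJB9, a J-domain cochaperone that works with BiP and restrains IRE1 (chr7:108569867-108574850, plus strand), had the largest fall of these 9. Its libraries read 5.13, 5.26 and 5.18 FPKM in siEIF4G2 and 6.93, 7.2 and 7 FPKM in siNC. The gap between groups was several times the spread within them, and DNAJB9 fell 1.38-fold (log2 fold change -0.47, SE 0.06; edgeR adjusted p = 0.00339). DNAJC3, a further J-domain protein, also known as an inhibitor of eIF2 alpha kinases, fell 1.17-fold, from 9.15 ± 0.264 to 7.94 ± 0.482 FPKM (SD, n = 3; edgeR adjusted p = 0.0232). Its adjusted p was 0.0549 to 0.0771 on leaving out siEIF4G2 replicate 3, siNC replicate 1 or siNC replicate 2.

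MANF, a small secreted protein of the stressed lumen, fell 1.16-fold, from 36.9 ± 0.842 to 32.3 ± 1.65 FPKM (SD, n = 3; edgeR adjusted p = 0.0299), and of the 6 libraries siEIF4G2 replicate 2 was the one that could be left out without losing the call. With any other library left out its adjusted p was 0.0579 to 0.0876. SDF2L1, which works with BiP and J-domain proteins (chr22:21642302-21644299, plus strand), was the chaperone member that rose. It read 27.2, 32.5 and 27.8 FPKM in siEIF4G2 and 22.03, 22.7 and 21.1 FPKM in siNC, without overlap. The rise was 1.31-fold (log2 fold change 0.39, SE 0.09; edgeR adjusted p = 0.0244), and its adjusted p was 0.0568 to 0.0722 on leaving out siNC replicate 1, 2 or 3.

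The remaining chaperone members were not called. HSP90B1, the Hsp90 of the lumen, read 244, 210.3 and 223 FPKM in siEIF4G2 and 179.6, 207 and 193 FPKM in siNC. Its groups did not overlap, but the log2 fold change, 0.20 (SE 0.07), did not pass (edgeR adjusted p = 0.0772). On the log2 scale HYOU1, the nucleotide exchange factor of BiP, differed by -0.11 (SE 0.04; edgeR adjusted p = 0.113), DNAJB11, a cochaperone, by -0.10 (SE 0.06; edgeR adjusted p = 0.237) and CRELD2 by -0.07 (SE 0.08; edgeR adjusted p = 0.571). The 2 most abundant chaperones, HSP90B1 and HSPA5, had fold changes of opposite sign. HSP90B1 was not called, however, and the call of HSPA5 depended on single libraries. The summed level of the 9 genes was 540 ± 13.9 FPKM in siEIF4G2 and 526 ± 16.7 FPKM in siNC (SD, n = 3), and the groups overlapped.

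Disulfide enzymes were the role in which called genes rose and 0 fell. Of the 5, 3 were higher (60%, beside 15.9% of all tested genes, with 17.6% lower). Without siNC replicate 2 or 3, 1 of the 5 was called higher. Oxidoreductases outside the members went both ways: PDIA5, TXNDC5, TXNDC11, QSOX1 and ERP44 were called lower, PRDX4 and TMX3 higher. ERO1A encodes the oxidase that recharges protein disulfide isomerase (chr14:52639915-52695900, minus strand). It read 16.8, 16.1 and 15.6 FPKM in siEIF4G2 and 11.9, 12 and 12.4 FPKM in siNC. The lowest siEIF4G2 library of ERO1A was well above the highest siNC library, a 1.31-fold rise (log2 fold change 0.39, SE 0.05; edgeR adjusted p = 0.00191). PDIA4, an isomerase, read 51.1, 46.8 and 48 FPKM in siEIF4G2 and 42.5, 41.6 and 41.3 FPKM in siNC, 1.14-fold higher (edgeR adjusted p = 0.0185). PDIA6, an isomerase that also acts on the sensors, read 164, 160.1 and 158 FPKM against 144, 141 and 141 FPKM, 1.11-fold higher (edgeR adjusted p = 0.0219).

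The rises of PDIA4 and PDIA6 were small and depended on single libraries. PDIA4 had an adjusted p of 0.0583 and 0.0578 without siNC replicate 2 or 3, and PDIA6 of 0.0558 to 0.0791 on leaving out siEIF4G2 replicate 1 or any siNC library. P4HB, the classical protein disulfide isomerase, was at 128 ± 13.9 FPKM in siEIF4G2 and 121 ± 6.51 FPKM in siNC (SD, n = 3; log2 fold change 0.06, SE 0.09; edgeR adjusted p = 0.688). PDIA3, which folds glycoproteins together with calnexin and calreticulin, was at 133 ± 5.12 and 134 ± 1.65 FPKM (log2 fold change -0.03, SE 0.05; edgeR adjusted p = 0.626). A near-identical processed copy, PDIA3P1, is counted separately at 11.6 to 13.7 FPKM, so reads of PDIA3 may be split.

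In the degradation group 3 of 8 tested genes fell and 0 rose (37.5% and 0%, beside 17.6% and 15.9% of all tested genes). EDEM2, a mannosidase that starts the trimming of misfolded glycoproteins (chr20:35115364-35147336, minus strand), read 16.2, 16.4 and 15.4 FPKM in siEIF4G2 and 27.1, 24.6 and 27.2 FPKM in siNC. This was the clearest separation of the group, a 1.67-fold fall (log2 fold change -0.74, SE 0.07; edgeR adjusted p = 0.000849). EDEM1, which delivers misfolded glycoproteins to degradation (chr3:5187646-5219958, plus strand), read 5.22, 4.68 and 5.08 FPKM against 6.02, 5.77 and 5.92 FPKM. EDEM1 fell 1.20-fold (log2 fold change -0.27, SE 0.05; edgeR adjusted p = 0.0131). EDEM3, the other mannosidase of the family, overlapped between groups, with 2.28, 3.8 and 4.65 FPKM in siEIF4G2 and 3.56, 4.19 and 4.48 FPKM in siNC (edgeR adjusted p = 0.565).

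DERL2, a Derlin of the retrotranslocation complex (chr17:5471254-5486178, minus strand), read 6.61, 6.28 and 6.38 FPKM in siEIF4G2 and 7.31, 7.29 and 7.75 FPKM in siNC, a 1.18-fold fall (log2 fold change -0.24, SE 0.05; edgeR adjusted p = 0.0128). DERL1, its relative, did not pass (log2 fold change -0.02, SE 0.10; edgeR adjusted p = 0.883). The ubiquitin ligase SYVN1, also called HRD1, read 7.02, 5.31 and 7.13 FPKM in siEIF4G2 and 5.99, 10.2 and 9.42 FPKM in siNC, so that siNC replicate 1 lay inside the siEIF4G2 range. Its log2 fold change was -0.42 (SE 0.21; edgeR adjusted p = 0.179), and -0.62 without siNC replicate 1 (edgeR adjusted p = 0.0302). SYVN1 overlaps FAU on the same strand and MRPL49 on the opposite strand, which hold 260% and 106% of its mean count. Use of strand in counting is not given in the sources used here. SEL1L, the partner of SYVN1, differed by 0.04 on the log2 scale (SE 0.09; edgeR adjusted p = 0.749).

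HERPUD1, a stress-induced membrane protein that organises the SYVN1 complex, read 11.2, 10.5 and 11.2 FPKM in siEIF4G2 and 9.61, 10.9 and 6.57 FPKM in siNC. Replicate 3 of siNC was the lowest of the 6, the groups overlapped, and HERPUD1 was not called (log2 fold change 0.25, SE 0.18; edgeR adjusted p = 0.32). Summed over the 9 degradation genes, the level was 63.9, 59.8 and 65.4 FPKM in siEIF4G2 and 73.3, 76.5 and 76.6 FPKM in siNC. EDEM2 alone, at 16 ± 0.556 against 26.3 ± 1.47 FPKM (SD, n = 3), carried most of that gap.

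Of the 4 translocation and export members, SEC24D and SEC61B fell and SEC61A1 and SSR1 were not called. The shares, 50% lower and 0% higher, stand beside 17.6% and 15.9% of all tested genes. SEC24D, a cargo-binding subunit of the COPII export coat (chr4:118722823-118838683, minus strand), read 5.21, 5.39 and 5.4 FPKM in siEIF4G2 and 7.7, 7.69 and 7.41 FPKM in siNC. Both groups were tight and far apart, and SEC24D fell 1.45-fold (log2 fold change -0.54, SE 0.05; edgeR adjusted p = 0.0008). SEC61B, a small subunit of the translocation channel, read 53.4, 58 and 53.6 FPKM against 64, 67.1 and 59.7 FPKM, 1.18-fold lower (edgeR adjusted p = 0.0435). Its adjusted p was 0.113 to 0.125 on leaving out 1 of siEIF4G2 replicates 1 and 3 and siNC replicates 1 and 2. SEC61A1, the channel itself, was at 85.1 ± 0.512 and 87.9 ± 6.91 FPKM (SD, n = 3; edgeR adjusted p = 0.394). SSR1, a subunit of the translocon-associated complex, read 19.4, 17 and 22.8 FPKM in siEIF4G2 and 21, 11 and 22 FPKM in siNC (edgeR adjusted p = 0.795), where siNC replicate 2 was the lowest of the 6.

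Library-to-library spread differed greatly between members. The highest library of a group was at least 1.5-fold above the lowest for 6 of 31 tested members (XBP1, CREB3L2, HERPUD1, EDEM3, SYVN1 and SSR1), beside 26.2% of all tested genes, and at least 2-fold for CREB3L2, EDEM3 and SSR1, beside 12.8%. The library that stood apart was not the same for each: siEIF4G2 replicate 2 for CREB3L2 and XBP1, siEIF4G2 replicate 1 for EDEM3, siNC replicate 1 for SYVN1, siNC replicate 2 for SSR1 and siNC replicate 3 for HERPUD1. None of these 6 was called. For HSPA5, in contrast, the highest library was 1.01-fold and 1.02-fold above the lowest in siEIF4G2 and siNC.

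**Figure D4:**
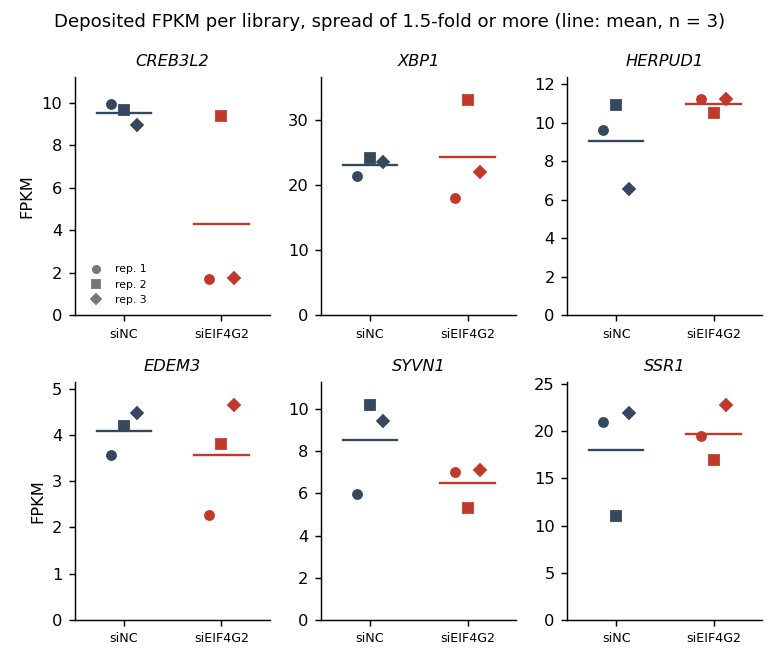
Deposited FPKM (y axes, from 0) per library for the 6 members with a spread of at least 1.5-fold inside a group, with circles, squares and diamonds for replicates 1, 2 and 3 and a line at each mean. CREB3L2 has 2 siEIF4G2 libraries under 2 FPKM and the third at 9.4 FPKM, and in SSR1 siNC replicate 2 is at 11 FPKM.

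Genes of the same pathway outside the 32 were counted in 5 further lists. Of 16 tested genes listed for the PERK and ATF4 branch, 9 fell and 1 rose, with a median log2 fold change of -0.25. The list also holds EIF2AK1, EIF2AK2 and EIF2AK4, eIF2 alpha kinases other than PERK. The shares were 56.2% and 6.25%, beside 17.6% and 15.9% of all tested genes. Leaving out 1 library gave 6 to 9 falls and 0 to 2 rises. The rise was ASNS, 1.43-fold higher (edgeR adjusted p = 0.0202), while TRIB3, CHAC1 and ATF5 were not called. PPP1R15A, ATF3, CEBPB and PPP1R15B were 1.27-fold, 1.48-fold, 1.28-fold and 1.21-fold lower (edgeR adjusted p = 0.00732, 0.0198, 0.0219 and 0.0338). The call of PPP1R15A held on leaving out any 1 library. Those of ASNS, ATF3, CEBPB and PPP1R15B held in 2 or 3 of the 6 such fits. EIF2S1, EIF2AK1 and EIF2AK2, which encode eIF2 alpha and kinases of it, were among the falls. EIF2S1, which encodes the eIF2 alpha subunit that PERK phosphorylates, went from 24.9 ± 0.972 to 19.8 ± 0.573 FPKM (SD, n = 3), 1.28-fold lower (edgeR adjusted p = 0.00287). EIF2AK2, the interferon-induced eIF2 alpha kinase PKR, was 1.83-fold lower (edgeR adjusted p = 0.000708), SESN2, a stress-induced inhibitor of mTORC1 signalling, 1.71-fold lower (edgeR adjusted p = 0.00269), and NUPR1, a stress-induced chromatin protein, 1.52-fold lower (edgeR adjusted p = 0.00493). ATF4 and DDIT3 (CHOP), the transcription factors at the centre of the branch, were looked up after their values were seen and were not called. ATF4 read 14.1, 14.6 and 15.1 FPKM in siEIF4G2 and 20.4, 11.8 and 11.5 FPKM in siNC, where siNC replicate 1 stood above the rest (edgeR adjusted p = 0.959). DDIT3 read 10.7, 5.9 and 9.63 FPKM against 6.69, 7.34 and 13.7 FPKM (edgeR adjusted p = 0.831).

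Among 15 tested further sensors, proteases and transcription factors, 6 fell and 2 rose, with a median log2 fold change of -0.15. These shares were 40% and 13.3%, beside 17.6% and 15.9% of all tested genes. CREB3, a membrane-bound transcription factor, was 1.26-fold lower (edgeR adjusted p = 0.00481), and BAX and BAK1, apoptosis effectors that also bind IRE1, 1.62-fold and 1.39-fold lower (edgeR adjusted p = 0.00179 and 0.000868). MAP3K5, the kinase ASK1 downstream of IRE1, was 1.41-fold higher, at 2.61 ± 0.122 against 1.81 ± 0.13 FPKM (SD, n = 3; edgeR adjusted p = 0.00716).

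The 29 tested further chaperones and oxidoreductases gave 6 falls and 4 rises (median log2 fold change -0.07), shares of 20.7% and 13.8% that are near those of all tested genes, 17.6% and 15.9%. The 6 falls were ERP44, PDIA5, TXNDC5, TXNDC11, QSOX1 and RCN1, and the 4 rises PRDX4, TMX3, RCN2 and FKBP14. The falls numbered 2 without siNC replicate 1 and 3 without siNC replicate 3. PRDX4, the peroxiredoxin of the lumen, read 97.6, 99 and 96.2 FPKM in siEIF4G2 and 62.2, 66 and 60.6 FPKM in siNC, a 1.52-fold rise (log2 fold change 0.61, SE 0.05; edgeR adjusted p = 0.000639). TMX3, a membrane-bound isomerase, rose 1.42-fold and RCN2, a calcium-binding protein, 1.28-fold (edgeR adjusted p = 0.00479 and 0.00439), while ERP44, which retains ERO1A in the early secretory pathway, fell 1.23-fold (edgeR adjusted p = 0.00719).

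The further degradation list, with 34 tested genes, had 8 falls and 6 rises, with a median of -0.06 on the log2 scale. These shares, 23.5% and 17.6%, stand beside 17.6% lower and 15.9% higher of all tested genes. Without siEIF4G2 replicate 3 the list had 5 falls. FAM8A1, an organiser of the SYVN1 complex, went from 15.9 ± 0.366 to 8.76 ± 0.423 FPKM (SD, n = 3), 1.85-fold lower (edgeR adjusted p = 0.000291). The paired scaffold genes ERLIN1 and ERLIN2, whose products form 1 complex, went in opposite directions. ERLIN1 read 18.5, 18 and 18.8 FPKM in siEIF4G2 and 10.9, 10 and 11.1 FPKM in siNC, 1.69-fold higher (edgeR adjusted p = 0.00053). ERLIN2 read 4.79, 4.6 and 4.79 FPKM against 6.69, 6.11 and 6.71 FPKM, 1.40-fold lower (edgeR adjusted p = 0.00183). UBE2J1, the membrane-anchored ubiquitin-conjugating enzyme that works with SYVN1, rose 1.27-fold (edgeR adjusted p = 0.0027).

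Translocation and early secretion genes mostly fell where they were called. Of 39 tested in the further list, 14 were lower and 1 higher, with a median log2 fold change of -0.14. These shares were 35.9% and 2.56%, beside 17.6% and 15.9% of all tested genes. KDELR3, a receptor that returns lumenal chaperones from the Golgi, read 14.3, 15.9 and 14.6 FPKM in siEIF4G2 and 29.04, 26.9 and 26.7 FPKM in siNC, a 1.88-fold fall (edgeR adjusted p = 0.000644). SEC63, the J-domain partner of the translocation channel, was 1.63-fold lower, SEC24A, a paralogue of SEC24D, 1.57-fold lower, and SRPRA, the receptor of the signal recognition particle, 1.33-fold lower (edgeR adjusted p = 0.000407, 0.00043 and 0.000844). Over the 5 lists together 14 of 133 tested genes were higher and 43 lower (10.5% and 32.3%), with a median log2 fold change of -0.13. Of all tested genes, 15.9% were higher and 17.6% lower. Without siEIF4G2 replicate 3 the falls numbered 28 over the 5 lists and 9 in the translocation and early secretion list.

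**Figure D5:**
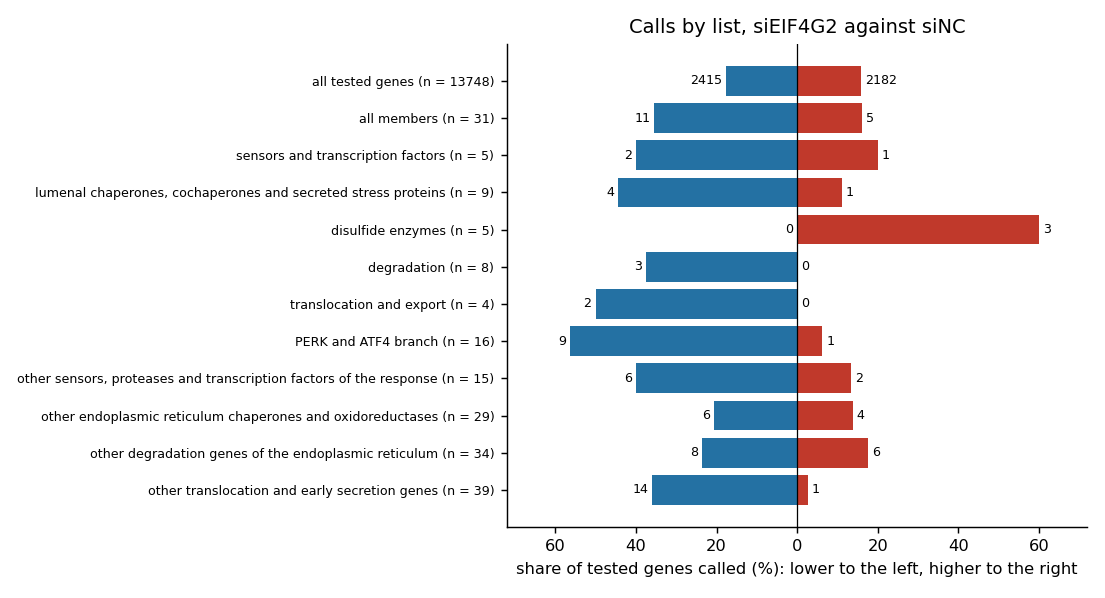
Share of tested genes called (x axis, percent; lower to the left in blue, higher to the right in red) for all tested genes, the members as a whole and by role, and 5 further lists, with the number of genes at each bar and n the number tested. Disulfide enzymes have 3 genes called higher and 0 lower, and the further translocation and early secretion list 1 higher and 14 lower.

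Some of these counts are uncertain because annotated genes overlap. Counted genes on the opposite strand hold 55.7% of the member's mean count for CRELD2 (ALG12), 20.3% for DERL1 (TBC1D31), 19.4% for SEC61A1 (RUVBL1) and 12.9% for DNAJB11 (TBCCD1). DERL3 overlaps SMARCB1, which holds far more counts. SYVN1 overlaps MRPL49 on the opposite strand (106%) and FAU on the same strand (260%). For the 9 members that passed throughout, no overlapping gene held over 1% of the member's count.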

How the data were processed

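The authors deposited 1 table with an estimated count and an FPKM value per gene and library; HISAT2 2.0 and StringTie 1.3.0 are listed, with no role, per the submitters' processing notes. The deposited estimated counts hold whole numbers; because FPKM per count varied within low genes (median range 21.2%), they were treated as rounded estimates and used as they stand. The deposited FPKM values are listed at 0.0001 where the count is 0. Build, annotation and strand setting of the authors: not given in the sources used here. Gene intervals overlapped GENCODE 29 (GRCh38) for 99.98% of 58394 shared identifiers, so coordinates are given as GRCh38.

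Groups and replicate numbers came from sample titles. Where rows shared a symbol, the one with the highest mean FPKM was kept. The filter asked for 0.5 FPKM or more in 3 or more libraries and left 13748 genes, tested with edgeR 4.0.16 (TMM, group only, two-sided, Benjamini-Hochberg over all tested genes; R 4.3.3). SE was obtained as the size of the log2 fold change over the root of F. With 3 against 3 libraries an exact permutation test of 1 gene cannot go below p = 0.1. On simulated counts of these 13748 genes, with 50 genes changed at each size, the test found 94% at 4-fold, 46% at 2-fold, 8% at 1.5-fold and 0% at 1.3-fold, and 2 of 76 calls were false. Far fewer genes were changed there than the 4597 called in the data. The counts were drawn with edgeR's dispersion of each gene, around a common coefficient of variation of 19.4%. How that spread compares with the members' own was not tested. In the data HSPA5 was called at 1.10-fold, so these shares cannot be read as the power for the members.

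Alternatives were RLE scaling, library totals, DESeq2 1.42.0, limma 3.58.1 on log2(FPKM + 1) and log2(FPKM + 0.1), other filters, summing rows sharing a symbol, a replicate block and leaving out each library. The members and lists were chosen with earlier results of these data known. Genes named outside the members are EIF4G2 and, of each further list, up to 4 called genes with the smallest p. ATF4, DDIT3, ASNS, EIF2AK1, TRIB3, CHAC1, ATF5, PPP1R15A, PPP1R15B, ATF3 and CEBPB were looked up after their values were seen. So were the remaining called genes of the further chaperone list. Overlapping and marker genes are named besides. Promoter stretches are from RefSeq (GRCh38.p14).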

Additional observations from a re-analysis of the deposited data

How the results depend on the processing

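Members called higher numbered 5 and lower 11 with all libraries. On leaving out 1 library the higher calls were 2 to 5 and the lower calls 7 to 12; 3 were higher without siNC replicate 1 and 2 without siNC replicate 2 or 3, and 7 were lower without siEIF4G2 replicate 3 or siNC replicate 2. For the 5 further lists, leaving out a library gave 28 to 39 lower calls against 43 with all, the fewest without siEIF4G2 replicate 3. These fits have fewer libraries, and over all tested genes they called 24.4% to 30.1%, against 33.4% with all libraries. The other settings left the higher calls of members at 5 and the lower calls between 8 and 11. The 8 came with no filter, where 27064 genes were tested and 14.4% called. HSPA5, MANF and SEC61B missed the threshold without a filter, and DNAJC3 with limma on either FPKM scale (adjusted p = 0.0501 for both). No called member changed sign under any setting run. Correlations of deviations between same-numbered libraries were 0.0011, 0.0317 and 0.0498. They gave no clear sign of pairing by number. They cannot exclude it, because the deviations were taken from means of 3 libraries. With the replicate block 5 members were higher and 10 lower, HSPA5 being the call lost (adjusted p = 0.0516). Replicates 2 and 3 of siNC each correlated best with the siEIF4G2 library of the same number, and siNC replicate 1 with siEIF4G2 replicate 2, all at values under 0.05. The effect of depth on the members' calls was not tested; DERL3 had 5 to 116 counts and was below the filter.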
